A study of Rattus norvegicus with 12 samples.

Results

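Transcripts of rat sciatic nerve stumps held in a truncated-cone conduit labelled CC4:2 were compared with those of stumps held in a conduit labelled CC4:4. The comparison took 6 of the 12 samples of the series, 3 per conduit, and all 15712 genes that passed a filter on low counts out of 30562 in the deposited table. The other 6 samples were 3 control stumps (Control) and 3 from a verteporfin-loaded 4:2 conduit (VP4:2). Verteporfin is known to keep the coactivator YAP from binding TEAD factors. They entered the fit to share its estimate of the spread and are shown beside some results. The labels gave the tissue (sciatic nerve) and the group, and named no drug in either conduit compared here. Rat strain, age, time of harvest, the meaning of 4:2 and 4:4 beyond a gradient of the cone, and the number of animals behind the 3 stumps of a group are not stated in the labels. So p-values reflect only how these stumps varied, part of which may be technical. Per the series' design text, the study looked for the genetic mechanism by which such conduits relieve pain.

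When a peripheral nerve is cut, Schwann cells give up the myelin sheath and turn to repair, while neutrophils, macrophages and lymphocytes enter the stump and clear debris. Schwann cells regain myelin under Egr2 and Sox10, rest on a basement membrane of laminins held by integrins, and signal with desert hedgehog (Dhh) to the fibroblasts and perineurial cells around them. YAP and its paralog TAZ (encoded by Wwtr1) carry mechanical signals into the nucleus, are restrained by the LATS kinases of the Hippo pathway, and act with TEAD factors.

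CC4:2 stumps held more transcripts of myelin, of Schwann cell regulators, of hedgehog signalling, of laminins and their receptors, and of sterol and fatty acid synthesis than CC4:4 stumps. They held fewer transcripts of chemokines, cytokines, phagocyte and lymphocyte genes, several collagen-degrading proteases and the cell cycle. Transcripts of the main collagens, of endothelium and of most focal adhesion proteins were not called different. The quasi-likelihood test of edgeR with Benjamini-Hochberg adjustment called 6156 of 15712 genes (39.2%) at an adjusted p under 0.05. Of these 2905 (18.5% of the genes tested) were higher in CC4:2 and 3251 (20.7%) were lower. Counts of called genes in the lists below are to be read beside these shares. Changes of at least 8-fold were found in 167 of the higher and 539 of the lower genes. The 3 values of one group lay wholly apart from the 3 of the other in 53.1% of the genes tested, with CC4:2 above in 25.1% and below in 28.0%. Log2 fold changes below are given for CC4:2 against CC4:4 with their standard error (SE), and n = 3 stumps per group throughout. Levels are given in CPM, which are counts brought to a common library size with TMM scaling.

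The 6 libraries held 16118778 to 17585162 counts each, and the first principal component of the 6, with 75.5% of the variance, separated the groups. Each group had replicates 1 and 2 sequenced on the NovaSeq X Plus platform and replicate 3 on the DNBSEQ-T7, so that platform and group were balanced. In the NovaSeq samples alone, with 2 stumps against 2, 3253 genes (20.6% of 15800) were called. The median log2 fold change of all genes was 0.01, and 0.22 when counts were scaled by library totals only. Under that scaling 4174 genes were higher (26.6%) and 2195 lower (14.0%), so that 65.5% of the calls were upward against 47.2% with TMM. Leaving out CC4:4 replicate 2 took the largest number of calls away. Of 12 usual reference genes, 7 were lower in CC4:2 and 1 was higher (median -0.58, and 3 lower and 1 higher with library totals), among them Actb (-0.81 ± 0.20, adjusted p = 0.0081, and 0.14 in the NovaSeq samples alone) and Hprt1 (-0.76 ± 0.18, adjusted p = 0.0068). Fewer reference genes were lower without a single library, with 3 or 4 left when replicate 1 or 3 of CC4:2, or replicate 2 or 3 of CC4:4, was dropped.

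These were whole stumps, in which fewer cells of a type and less RNA per cell cannot be told apart. Lists of cell-type markers were therefore read as the make-up of the RNA. The summed level of 19 myelin genes was 42127, 24022 and 16196 CPM in the 3 CC4:2 stumps and 4029, 3284 and 3198 CPM in the 3 CC4:4 stumps. CC4:2 replicate 1 was the highest and the groups did not overlap. The sum of 9 perineurial genes was 4210 to 4864 against 608 to 902 CPM. Most of the CC4:2 sum came from Itgb4, which is also a gene of Schwann cells. The sum of 14 nerve fibroblast genes was 1714 to 2407 against 1167 to 1945 CPM, with overlap. The mean log2 CPM of that fibroblast list, which weighs its members alike, did not overlap. Set against the CC4:4 mean it was 0.81, 1.06 and 0.90 in CC4:2 and 0.17, -0.33 and 0.17 in CC4:4. Macrophage markers summed to 1733 to 2043 CPM in CC4:2 and 4203 to 5387 CPM in CC4:4, neutrophil markers to 20.1 to 34.5 against 405 to 970, T cell markers to 36 to 88.1 against 391 to 568, and B and plasma cell markers to 131 to 335 against 3219 to 6897. All 4 immune sums were lower in every CC4:2 stump than in any CC4:4 stump. Much of the macrophage gap came from Gpnmb, with 8267, 5792 and 5765 counts in CC4:2 and 37189, 26118 and 30823 in CC4:4. With its 20 members weighed alike, the macrophage list stood at -1.73, -1.51 and -1.39 in CC4:2. In CC4:4 it stood at -0.03, -0.14 and 0.16, both set against the CC4:4 mean. Of these members 12 were lower and 8, such as Csf1r and Mrc1, had no call. The share of counts from 7 genes with immunoglobulin symbols was 0.0%, 0.02% and 0.05% in CC4:2 and 3.16%, 6.6% and 3.75% in CC4:4. These shifts moved with the gene groups that differed between the conduits, and their part in those results was not tested.

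**Figure D1:**
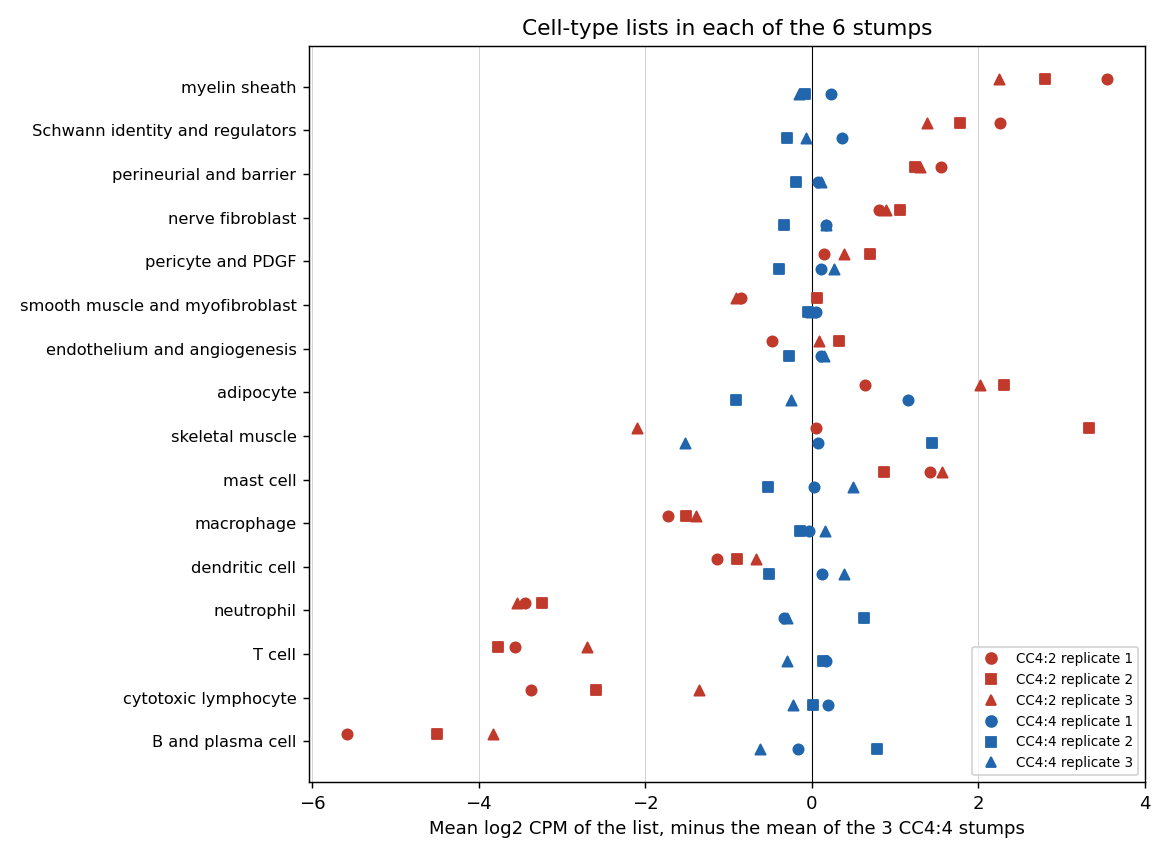
Each point is 1 stump, placed by the mean log2 CPM of a cell-type list minus the mean of the 3 CC4:4 stumps (red, CC4:2; blue, CC4:4; the shape gives the replicate). CC4:2 stumps lay 2.25 to 3.55 above that mean for myelin and differed from it by -5.58 to -3.83 for B and plasma cells, while endothelial and skeletal muscle points of the 2 groups were mixed.

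Tissue that is not nerve varied between single stumps. Skeletal muscle transcripts summed to 1142, 11449 and 196 CPM in CC4:2 and 1382, 2950 and 236 CPM in CC4:4, so that CC4:2 replicate 2 held the most and the groups overlapped; 0 of 11 muscle genes were called. Red cell genes (0 of 6 called, and 1 without CC4:2 replicate 3) also overlapped. Fat cell genes summed to 1482, 4560 and 3913 against 2384, 616 and 1020 CPM, and 5 of 14 were higher (35.7%), none lower. Over all genes tested 39.2% were called, 18.5% as higher. The fat cell count rested on single libraries: 12 were higher without CC4:4 replicate 1 and 9 without CC4:2 replicate 1. It was 1 or 2 without any of the other 4, and 0 in the NovaSeq samples alone. Genes of endothelium, which lines the blood vessels, and of vessel growth factors gave 0 higher and 1 lower of 19 (median 0.07). Pecam1, the vessel adhesion gene, was at 196, 385 and 335 CPM in CC4:2 and 379, 292 and 420 in CC4:4, which overlapped (-0.25 ± 0.31, adjusted p = 0.54). The 1 lower gene, Angpt1, a ligand of the vessel receptor Tie2, lost its call without any of the 6 libraries (adjusted p = 0.05 to 0.12). In this list 2 genes were higher without CC4:2 replicate 1 and 1 without CC4:2 replicate 3.

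All 19 myelin sheath genes were higher in CC4:2 (median 3.02), and 7 of them were called in the NovaSeq samples alone. Pmp22, which encodes a structural protein of compact myelin, was at 5307, 2822 and 2300 CPM in CC4:2 and 537, 493 and 502 CPM in CC4:4. Every CC4:2 stump lay above every CC4:4 stump, and CC4:2 replicate 3 was the lowest of its group (2.77 ± 0.51, adjusted p = 0.0021). Gjc3, a connexin of myelinating glia, rose by 3.02 ± 0.54 (adjusted p = 0.0017) and Ncmap, a protein of noncompact myelin, by 3.17 ± 0.63 (adjusted p = 0.0032). The smallest rise was that of Cnp, an enzyme of noncompact myelin (2.15 ± 0.41, adjusted p = 0.0025), and the largest that of the connexin gene Gjb1 (3.26 ± 0.76, adjusted p = 0.0068, and 0.06 in the NovaSeq samples alone).

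Of 20 Schwann cell identity and regulator genes, 15 were higher, 1 was lower and 4 were not called (median 2.43). The count fell to 10 higher and 0 lower without CC4:4 replicate 2, and to 6 in the NovaSeq samples alone. Among the receptors, Erbb2 was at 78.4, 76 and 49.9 CPM in CC4:2 and 16.1, 10 and 12.6 in CC4:4, with no overlap (2.40 ± 0.30, adjusted p = 3.4e-04). It pairs with Erbb3, the receptor of neuregulin, which rose by 2.46 ± 0.52 (adjusted p = 0.0044). Adgrg6, an adhesion receptor that starts myelination, rose by 2.11 ± 0.40 (adjusted p = 0.0024). The neural crest factor Foxd3 showed the largest rise of the list, from 0.927 ± 0.729 CPM (mean ± SD) in CC4:4 to 14.4 ± 7.36 in CC4:2 (3.93 ± 0.80, adjusted p = 0.0035). Sox2, which marks immature Schwann cells, also rose (3.26 ± 0.78, adjusted p = 0.008, and 0.073 in the NovaSeq samples alone). Id2, an inhibitor of differentiation factors, was the 1 lower gene (-0.70 ± 0.26, adjusted p = 0.0496) and was not called without 5 of the 6 libraries, at adjusted p of 0.059 to 0.15.

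Repair genes, which Schwann cells switch on after injury, were mixed. Of 11 tested, 4 were higher, 2 lower and 5 not called (median 1.60), and 1 was lower without CC4:2 replicate 2. Jun, the factor that drives the repair state, was at 154, 178 and 127 CPM in CC4:2 and 106, 64.6 and 88 in CC4:4, with no overlap (0.83 ± 0.19, adjusted p = 0.0059). Runx2, a transcription factor induced in injured Schwann cells, fell by 1.16 ± 0.21 (adjusted p = 0.0019). Atf3, an injury-induced factor, was not called (0.47 ± 0.28, adjusted p = 0.21). Gdnf, Artn, Olig1, Sprr1a and Ucn2 were in the table but did not pass the filter on low counts.

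Neurotrophic factors and their receptors split by member, with 7 higher, 2 lower and 7 not called of 16 (median 1.08), and 1 lower without CC4:2 replicate 2. Among the ligands, Ntf3, which supports sensory and Schwann cells, was at 1.75, 1.52 and 1.88 CPM in CC4:2 and 0.469, 0.203 and 0.274 in CC4:4, with no overlap (2.40 ± 0.42, adjusted p = 0.0016). Bdnf, a growth factor also made by activated glia and immune cells, was at 0, 0.169 and 0.47 CPM in CC4:2 and 2.17, 2.24 and 2.33 in CC4:4. All CC4:4 stumps lay above the CC4:2 stumps (-3.34 ± 0.92, adjusted p = 0.015), and the call was lost without CC4:2 replicate 2 (adjusted p = 0.0516). Among the receptors, the GDNF family co-receptor Gfra2 rose by 2.63 ± 0.43 (adjusted p = 0.0011) and the low-affinity neurotrophin receptor Ngfr by 2.38 ± 0.58 (adjusted p = 0.0085, and 0.077 in the NovaSeq samples alone).

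Hedgehog signalling genes rose together. Dhh, the ligand made by Schwann cells, binds the receptor Ptch1, which releases Smo and lets Gli factors switch on Gli1, Ptch1 and Hhip. Of 12 hedgehog genes tested, 8 were higher in CC4:2, 0 lower and 4 not called (median 2.14). All 8 were also called in the NovaSeq samples alone and with each library left out. Dhh was at 173, 103 and 71.9 CPM in CC4:2 and 30.1, 20.2 and 18.2 CPM in CC4:4, and the lowest CC4:2 stump stood above the highest CC4:4 stump (2.34 ± 0.43, adjusted p = 0.0021). The receptor Ptch1 (ENSRNOG00000019354) was at 409, 287 and 370 CPM in CC4:2 and 59.5, 34.2 and 65 in CC4:4. All CC4:2 values lay far above the CC4:4 values (2.75 ± 0.51, adjusted p = 0.0022). The decoy Hhip, which binds the ligand, rose by 3.87 ± 0.70 (adjusted p = 0.002).

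The transcription factor Gli1 was at 47.4, 49.5 and 48.4 CPM in CC4:2 and 5.93, 2.64 and 4.38 CPM in CC4:4 (3.48 ± 0.59, adjusted p = 0.0014). The 3 CC4:2 stumps were nearly alike. Gli2, which activates Gli1, rose by 1.68 ± 0.21 (adjusted p = 3.4e-04), while Gli3 was not called (0.19 ± 0.33, adjusted p = 0.68). The signal transducer Smo rose by 1.02 ± 0.26 (adjusted p = 0.011) and the co-receptor Boc by 1.94 ± 0.25 (adjusted p = 3.4e-04). Cdon, a co-receptor (0.95 ± 0.36, adjusted p = 0.059), and Sufu, which holds Gli factors back (0.40 ± 0.15, adjusted p = 0.059), missed the threshold. Shh, the paralog of Dhh, was at 7.57, 7.11 and 1.57 CPM in CC4:2 and 1.41, 1.42 and 0.137 in CC4:4, without overlap but not called (2.43 ± 0.95, adjusted p = 0.063). In the control stumps Gli1 stood at 1.35, 10.8 and 3.39 CPM and in VP4:2 at 21.5, 27 and 17.3 CPM, and VP4:2 was not called different from CC4:2 (-1.14 ± 0.53, adjusted p = 0.24).

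The Ptch1 promoter is shown because Ptch1 is both the receptor and a target of the pathway, and it was chosen after its values were seen. The window runs from 250 bases before to 50 bases after the gene's start in RefSeq (GRCr8, chr17:1555321-1555620, plus strand), and the capitals mark the Gli-binding motif GACCACCCA, found here on the other strand as TGGGTGGTC.
Ptch1: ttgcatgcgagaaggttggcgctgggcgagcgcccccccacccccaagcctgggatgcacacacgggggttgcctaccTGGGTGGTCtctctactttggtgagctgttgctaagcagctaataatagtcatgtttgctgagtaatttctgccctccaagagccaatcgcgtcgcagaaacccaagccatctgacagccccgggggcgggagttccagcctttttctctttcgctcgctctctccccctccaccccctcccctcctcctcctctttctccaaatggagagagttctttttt
The match lay 172 bases before the start. Searched on both strands, this motif was in the windows of 0.385% of all 33469 RefSeq rat promoters and in 1 of 9 hedgehog genes with a window. A match describes letters and is no sign that a factor was bound.

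**Figure D2:**
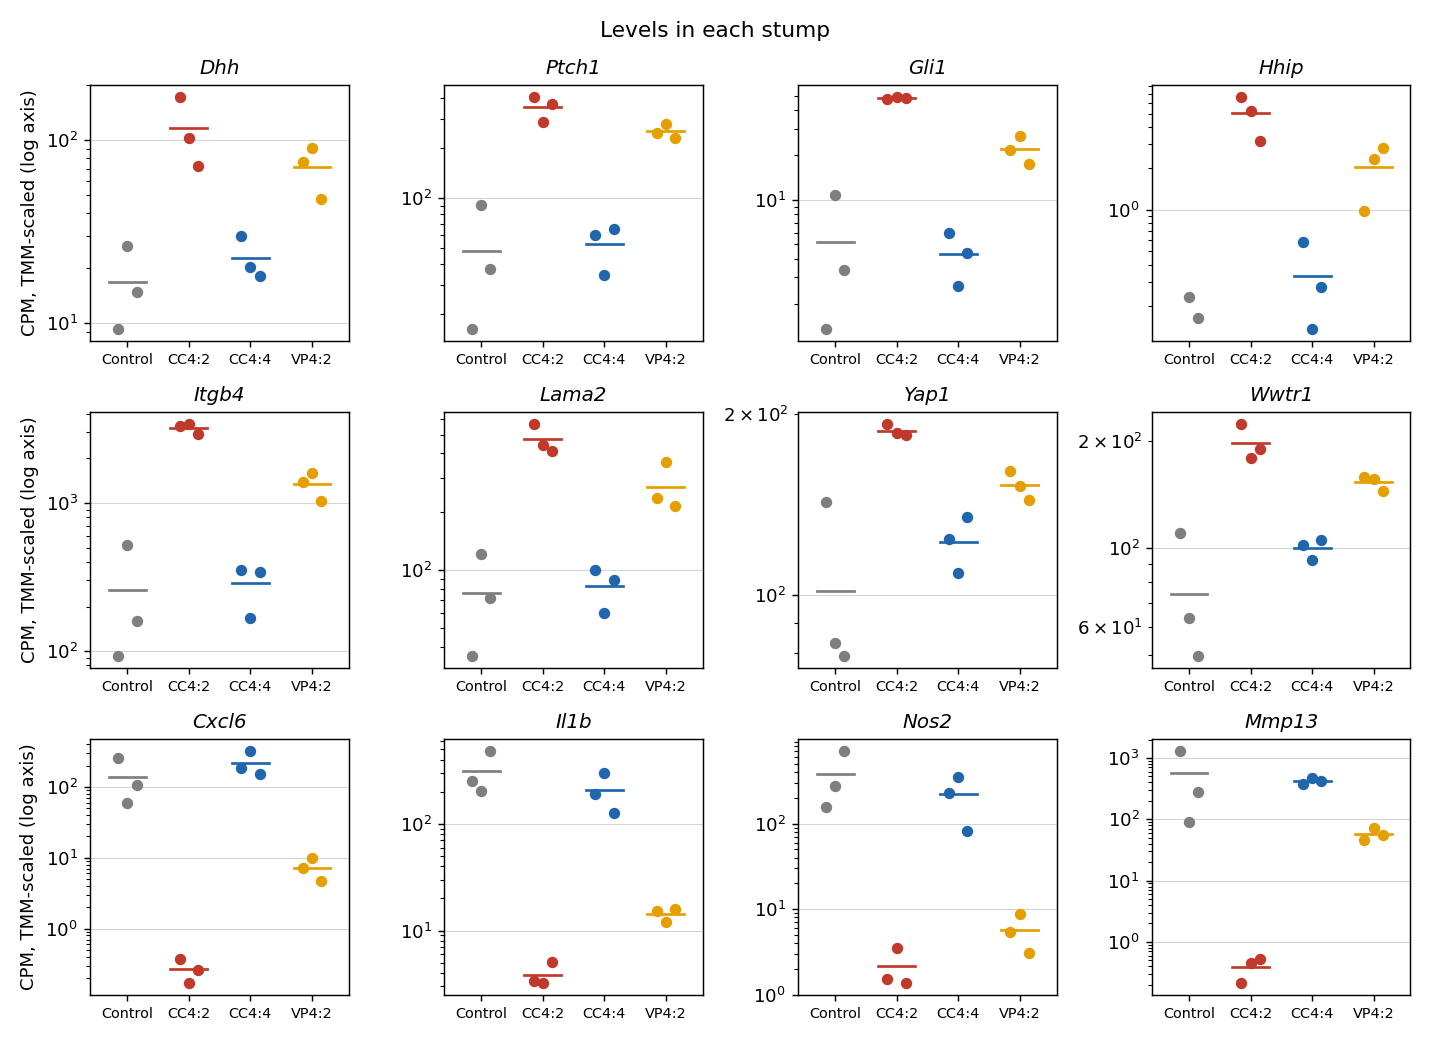
CPM of 12 genes in each stump on a log axis, with a line at the mean of 3 (grey, Control; red, CC4:2; blue, CC4:4; orange, VP4:2; the control stump in which Hhip was 0 is not drawn and that group has no line). Hedgehog, integrin and laminin genes stood higher in all CC4:2 stumps than in all CC4:4 stumps, and Cxcl6, Il1b, Nos2 and Mmp13 lower.

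Laminins of the basement membrane and the receptors that hold it were higher in CC4:2. Of 22 integrins and laminins, 12 were higher, 1 lower and 9 not called (median 0.93). Among the ligands, Lama2, the alpha chain of the Schwann cell laminin, was at 569, 444 and 409 CPM in CC4:2 and 100, 59.8 and 88.7 in CC4:4, with no overlap (2.51 ± 0.41, adjusted p = 0.0011). Its partner Lamb2 rose by 2.06 ± 0.29 (adjusted p = 5.7e-04), and Lamc1, the shared gamma chain, by 1.26 ± 0.21 (adjusted p = 0.0012). Lama4 rose by 0.98 ± 0.20 (adjusted p = 0.0037). Among the receptors, Itgb4 (ENSRNOG00000005580), which pairs with Itga6 in Schwann and perineurial cells, was at 3326, 3431 and 2941 CPM in CC4:2 and 353, 167 and 343 in CC4:4. The CC4:2 stumps were alike and the lowest CC4:4 stump was replicate 2 (3.49 ± 0.58, adjusted p = 0.0013). Itga6 rose by 2.32 ± 0.31 (adjusted p = 4.2e-04), the laminin receptor chain Itga7 by 2.60 ± 0.42 (adjusted p = 0.0011) and Dag1, which encodes dystroglycan, by 1.87 ± 0.26 (adjusted p = 5.5e-04). Itga8 was the 1 lower gene (-1.41 ± 0.49, adjusted p = 0.042) and was not called without each of the 6 libraries (adjusted p of 0.058 to 0.13).

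Some integrin chains were not called. Itgb1, the chain that most integrins share, was at 709, 678 and 752 CPM in CC4:2 and 676, 663 and 724 in CC4:4, and the groups overlapped (0.05 ± 0.20, adjusted p = 0.85). Itga5, the fibronectin receptor chain, stood at -0.63 ± 0.28 (adjusted p = 0.099) and Itga11, a collagen receptor chain, at -0.69 ± 0.48 (adjusted p = 0.28).

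Perineurial and barrier genes, which seal nerve bundles, gave 6 higher, 1 lower and 2 not called of 9 (median 1.22). Gjb2, a connexin gene, was at 54.7, 60.5 and 40.8 CPM in CC4:2 and 7.75, 1.63 and 7.45 in CC4:4, with no overlap (3.21 ± 0.43, adjusted p = 4.6e-04). Slc2a1, the barrier glucose transporter, rose by 1.47 ± 0.25 (adjusted p = 0.0014) and Tjp1, a tight junction scaffold, by 1.22 ± 0.22 (adjusted p = 0.002). Cldn1, the tight junction claudin of perineurium, rose by 3.50 ± 0.84 (adjusted p = 0.0079, and 0.074 in the NovaSeq samples alone). Msln, a mesothelial surface protein, went the other way, at 14.1, 16.6 and 16.1 CPM in CC4:2 and 114, 129 and 185 in CC4:4, and the groups lay far apart (-3.20 ± 0.30, adjusted p = 8.8e-05). Of 14 nerve fibroblast genes 8 were higher and 0 lower (median 0.85), such as Abca9 (2.22 ± 0.33, adjusted p = 6.9e-04) and Clec3b (1.62 ± 0.30, adjusted p = 0.0023). That count was 5 without CC4:4 replicate 2 or without CC4:4 replicate 3. Pdgfra, the general fibroblast receptor, was at 200, 225 and 251 CPM in CC4:2 and 226, 219 and 225 in CC4:4, with overlap (0.02 ± 0.15, adjusted p = 0.94).

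Sterol and fatty acid synthesis genes, whose products build myelin membrane, gave 19 higher, 0 lower and 5 not called of 24 (median 1.03). In the sterol branch, Hmgcs1, an early enzyme, was at 305, 178 and 182 CPM in CC4:2 and 59.6, 57.1 and 61.6 in CC4:4, with no overlap (1.90 ± 0.21, adjusted p = 1.6e-04). The sterol enzyme genes Lss, Mvd, Mvk and Fdps were not called, at -0.37 to 0.44. In the fatty acid branch, Fasn, the fatty acid synthase, was at 359, 1198 and 408 CPM in CC4:2 and 128, 90.2 and 84.8 in CC4:4. CC4:2 replicate 2, which also held the most fat cell transcripts, was the highest, and the groups did not overlap (2.69 ± 0.43, adjusted p = 0.00097). Elovl6, which lengthens fatty acids, rose by 1.97 ± 0.26 (adjusted p = 4.2e-04).

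Genes of axon guidance were mixed, with 9 higher, 2 lower and 14 not called of 25 (median 0.40), and 1 lower when replicate 1 or 3 of either group was left out. Among the ligands, Sema3b, a secreted semaphorin, was at 552, 543 and 249 CPM in CC4:2 and 61.3, 45.1 and 47.7 in CC4:4, with no overlap (3.12 ± 0.55, adjusted p = 0.0017). Ntn1, which encodes netrin, was at 256, 194 and 196 CPM against 55.4, 28.1 and 33.3 CPM, again with no overlap (2.47 ± 0.37, adjusted p = 7.7e-04). Slit2, a repellent ligand, rose by 1.90 ± 0.26 (adjusted p = 5.0e-04). Among the receptors, the netrin receptor Unc5c rose by 2.09 ± 0.29 (adjusted p = 4.9e-04), while Epha7, an ephrin receptor, fell by 2.49 ± 0.52 (adjusted p = 0.0042, and 0.075 in the NovaSeq samples alone). Nrp1, a semaphorin and VEGF co-receptor, was not called (0.27 ± 0.22, adjusted p = 0.35).

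Ion channel genes of excitability and pain gave 10 higher, 2 lower and 7 not called of 19 tested (median 1.64), and 5 were called in the NovaSeq samples alone. Hcn2, a pacemaker channel gene, was at 11.8, 7.73 and 4.33 CPM in CC4:2 and 1.58, 1.36 and 1.3 in CC4:4 (2.49 ± 0.36, adjusted p = 6.4e-04). The background potassium channel gene Kcnk1 was at 47.1, 30.6 and 18.4 CPM against 3.99, 3.59 and 3.97 CPM (3.05 ± 0.46, adjusted p = 7.8e-04). Neither gene overlapped between the groups. Kcna1, a potassium channel also present in myelinating glia, rose by 3.08 ± 0.73 (adjusted p = 0.0077, and 0.07 in the NovaSeq samples alone). Scn9a, a sodium channel of pain neurons that axons and glia can carry, was at 3.92, 1.86 and 3.76 CPM against 0.528, 0.136 and 0.205 CPM and rose by 3.40 ± 0.86 (adjusted p = 0.01, and 0.12 in the NovaSeq samples alone). The 2 lower genes were P2rx4, an ATP-gated channel of phagocytes, at 29.6, 33.3 and 29.4 CPM in CC4:2 and 78.1, 97.4 and 109 in CC4:4 (-1.63 ± 0.18, adjusted p = 1.8e-04), and Trpv2 (-1.76 ± 0.18, adjusted p = 1.2e-04). Both lay without overlap. The pain channel genes Scn10a, Scn11a, Scn1a, Trpa1, Asic3 and Kcnk10 did not pass the filter on low counts. Neuronal cell bodies lie outside a stump, and of 16 neuronal transcripts 9 passed that filter, with 3 higher and 2 lower (median 0.01).

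Among those neuronal transcripts, which can reach a stump inside axons, Stmn2, a regulator of axonal microtubules, was at 19.1, 8.97 and 6.89 CPM in CC4:2 and 52.8, 82.7 and 99.6 in CC4:4. It was lower in every CC4:2 stump (-2.75 ± 0.45, adjusted p = 0.0012). Calca, the gene of the pain peptide CGRP, was at 0.106, 0.0564 and 0.209 CPM against 0.528, 0.271 and 0.684 CPM (-1.92 ± 0.66, adjusted p = 0.04), and was not called without CC4:2 replicate 1 (adjusted p = 0.1), CC4:2 replicate 2 (0.11), CC4:4 replicate 1 (0.087) or CC4:4 replicate 3 (0.12). The neurofilament genes Nefl (3.39 ± 1.14, adjusted p = 0.037) and Nefm (3.56 ± 1.21, adjusted p = 0.038) were higher, but their groups overlapped. Nefl had 804, 8 and 181 counts in CC4:2 and 45, 21 and 13 in CC4:4. Nefm had 1049, 14 and 205 counts against 45, 35 and 9, and CC4:2 replicate 1 was the highest for both. Both lost their calls without 4 libraries. For Nefl these were CC4:2 replicate 1 (adjusted p = 0.24), CC4:4 replicate 1 (0.061), CC4:4 replicate 2 (0.11) and CC4:4 replicate 3 (0.11). For Nefm they were CC4:2 replicate 1 (adjusted p = 0.26), CC4:4 replicate 1 (0.077), CC4:4 replicate 2 (0.097) and CC4:4 replicate 3 (0.11). Prph, peripherin, was also higher (1.39 ± 0.49, adjusted p = 0.043), and this call was lost without CC4:2 replicate 1 (adjusted p = 0.086), CC4:2 replicate 2 (0.095), CC4:2 replicate 3 (0.06), CC4:4 replicate 1 (0.091) or CC4:4 replicate 2 (0.12). Of the 5 calls of this list only that of Stmn2 held with each library left out.

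Prostaglandin and leukotriene genes, whose products sensitise pain endings, gave 3 higher, 4 lower and 13 not called of 20 (median -0.21, and 0.01 with library totals). The shares of 15% higher and 20% lower were near the 18.5% and 20.7% of all genes tested. Among the enzymes, Ptgs2, the inducible cyclooxygenase, was at 8.21, 5.81 and 7.99 CPM in CC4:2 and 17.8, 19 and 9.44 in CC4:4 (-1.07 ± 0.36, adjusted p = 0.035). Its groups did not overlap, and the call was lost without CC4:2 replicate 1 (adjusted p = 0.061), CC4:2 replicate 2 (0.11), CC4:2 replicate 3 (0.064), CC4:4 replicate 1 (0.096) or CC4:4 replicate 2 (0.12). Tbxas1, the thromboxane synthase, fell by 1.18 ± 0.18 (adjusted p = 7.8e-04), while Ptgds, a prostaglandin D synthase, rose by 2.18 ± 0.47 (adjusted p = 0.0048, and 0.06 in the NovaSeq samples alone). Among the receptors, Ptger2 was at 0.688, 1.35 and 1.36 CPM against 6.63, 8.33 and 5.4 CPM, with no overlap (-2.58 ± 0.33, adjusted p = 3.5e-04).

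Components of the Hippo pathway gave 12 higher, 2 lower and 7 not called of 21 (median 0.62). The higher count was 8 without CC4:2 replicate 2 or CC4:4 replicate 2, and 10 without CC4:2 replicate 1 or CC4:4 replicate 3. Yap1 (ENSRNOG00000005933) was at 193, 186 and 185 CPM in CC4:2 and 124, 109 and 135 CPM in CC4:4. The groups did not overlap, and the rise was small (0.62 ± 0.20, adjusted p = 0.034). The call was lost without CC4:2 replicate 1 (adjusted p = 0.076), CC4:2 replicate 2 (0.065), CC4:2 replicate 3 (0.064), CC4:4 replicate 1 (0.063) or CC4:4 replicate 2 (0.1), and in the NovaSeq samples alone (adjusted p = 0.11). Its paralog Wwtr1 (ENSRNOG00000016617) was at 223, 179 and 190 CPM in CC4:2 and 102, 92.6 and 105 in CC4:4, also with no overlap (0.98 ± 0.24, adjusted p = 0.0089), and was called with each library left out. The DNA-binding partner Tead1 rose by 1.33 ± 0.17 (adjusted p = 3.3e-04) and the TEAD cofactor Vgll3 by 1.11 ± 0.16 (adjusted p = 6.9e-04), while Tead2 and Tead3 were not called.

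Upstream, genes that restrain YAP moved in both directions. Wwc1, which encodes the upstream activator KIBRA, showed the largest change of the list, at 4.71, 6.37 and 4.54 CPM in CC4:2 and 0.352, 0 and 0.479 in CC4:4, without overlap (4.19 ± 0.88, adjusted p = 0.0041). The kinase gene Lats2, which restrains YAP and is also its target, rose by 0.95 ± 0.19 (adjusted p = 0.0033), and Nf2, which encodes merlin, by 0.68 ± 0.12 (adjusted p = 0.0015). The kinase gene Stk4 was at 35.4, 35.4 and 39.1 CPM in CC4:2 and 69.5, 72.8 and 68.3 in CC4:4, and the groups did not overlap (-0.94 ± 0.19, adjusted p = 0.0031). Mob1a, a cofactor of the LATS kinases, fell by 0.77 ± 0.14 (adjusted p = 0.0021).

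Of 22 YAP and TAZ target genes, 11 were higher, 2 lower and 9 not called (median 0.46, against 0.01 over all genes). Without CC4:2 replicate 2 the count of higher genes was 7, and without CC4:4 replicate 2 it was 7 with 3 lower, while 1 was lower without CC4:2 replicate 1. Dock5, a Rac activator, was at 142, 96.9 and 144 CPM in CC4:2 and 42.5, 34.8 and 41 in CC4:4, with no overlap (1.69 ± 0.23, adjusted p = 5.1e-04). F3, the tissue factor gene, rose by 1.45 ± 0.21 (adjusted p = 6.5e-04) and the receptor kinase gene Axl by 1.12 ± 0.17 (adjusted p = 8.4e-04). The most used targets did not pass the test. Ccn1 was at 101, 105 and 46.6 CPM in CC4:2 and 77.9, 110 and 87.8 in CC4:4 (-0.12 ± 0.53, adjusted p = 0.87), with CC4:2 values on both sides of the CC4:4 values. Ccn2, the connective tissue growth factor gene, was at 117, 209 and 133 CPM against 176, 179 and 178 CPM (-0.21 ± 0.46, adjusted p = 0.74). Ankrd1, a stretch-induced nuclear protein, was at 2.06, 2.76 and 2.4 CPM against 1.17, 4.07 and 1.23 CPM (0.16 ± 1.03, adjusted p = 0.91). Each of these 3 genes overlapped between the groups. The 2 lower genes were Nuak2, a kinase gene (-1.19 ± 0.17, adjusted p = 6.0e-04), and Nt5e, an ectoenzyme that makes adenosine (-0.95 ± 0.27, adjusted p = 0.018, and 0.056 in the NovaSeq samples alone), the latter lost without CC4:2 replicate 1 (adjusted p = 0.059).

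**Figure D3:**
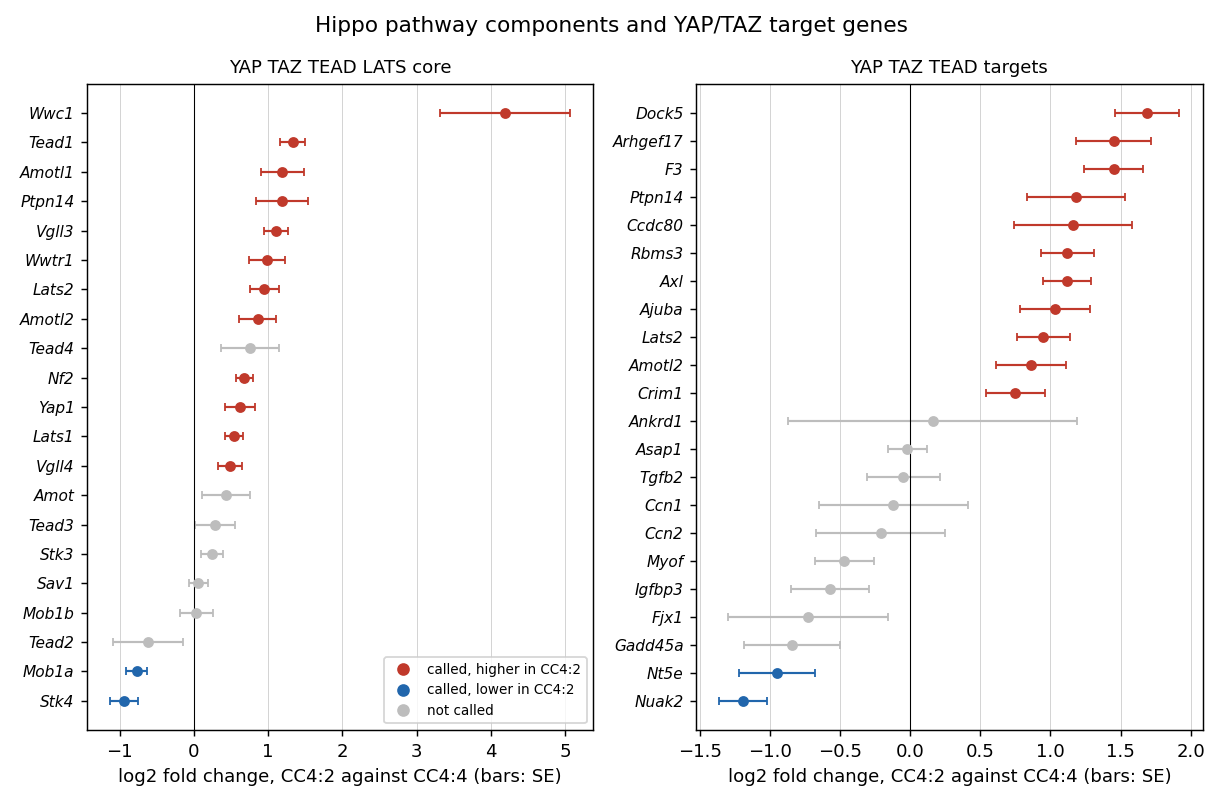
Log2 fold change with SE for 21 Hippo pathway components (left) and 22 YAP and TAZ targets (right), CC4:2 against CC4:4, coloured by call. Wwc1 stands alone at the top left with 4.19, while Ccn1, Ccn2 and Ankrd1 lie near 0 with wide bars.

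Stretch channels and focal adhesion proteins, which sense and bear load, gave 4 higher, 0 lower and 17 not called of 21 (median 0.22). Without CC4:2 replicate 2 the list gave 5 higher and 2 lower. The stretch-gated channel gene Piezo2 was at 73.3, 76.6 and 86.7 CPM in CC4:2 and 30.3, 23.5 and 33 in CC4:4, with no overlap (1.45 ± 0.20, adjusted p = 5.5e-04). Piezo1, its paralog, was at 103, 214 and 139 CPM against 158, 115 and 119 CPM, which overlapped (0.22 ± 0.24, adjusted p = 0.5). Vcl, which encodes vinculin, rose by 0.80 ± 0.18 (adjusted p = 0.0063) and Pxn, paxillin, by 0.68 ± 0.16 (adjusted p = 0.0074, and 0.0516 in the NovaSeq samples alone). The integrin chain Itgav was at the threshold (0.50 ± 0.18, adjusted p = 0.05) and was not called without CC4:2 replicate 1 (adjusted p = 0.18), CC4:2 replicate 3 (0.06), CC4:4 replicate 1 (0.1) or CC4:4 replicate 2 (0.15). Smooth muscle and myofibroblast genes were not called but for 1 of 14. Acta2, the myofibroblast actin gene, was at 182, 324 and 206 CPM in CC4:2 and 561, 508 and 612 in CC4:4, without overlap (-1.24 ± 0.50, adjusted p = 0.072). Tagln, an actin-binding protein gene, was the 1 lower gene (-1.46 ± 0.49, adjusted p = 0.035), and its call was lost without each of the 6 libraries (adjusted p of 0.057 to 0.11). The median of that list was -0.17, and 0.04 with library totals.

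Collagen genes, which make up most of scar, were mostly not called. Of 24 collagen chains and processing enzymes, 1 was higher, 2 lower and 21 not called (median 0.01). Col1a1 was at 8595, 24774 and 13354 CPM in CC4:2 and 24392, 23367 and 33138 CPM in CC4:4, and the spread within CC4:2 was wider than the difference (-0.79 ± 0.60, adjusted p = 0.32). Col3a1 likewise overlapped (0.16 ± 0.56, adjusted p = 0.84). The 1 higher gene was Col28a1, a collagen of nerve basement membrane, at 179, 123 and 86.9 CPM against 33.6, 9.01 and 16.4 CPM (2.72 ± 0.67, adjusted p = 0.0091, and 0.08 in the NovaSeq samples alone). Plod2, which hydroxylates collagen for cross-links, fell by 2.15 ± 0.57 (adjusted p = 0.013) but was not called without CC4:2 replicate 2 (adjusted p = 0.051). The other lower gene, Col12a1, lost its call without CC4:2 replicate 1 (adjusted p = 0.084), CC4:2 replicate 2 (0.0527), CC4:2 replicate 3 (0.058) or CC4:4 replicate 2 (0.079). Of 11 small leucine-rich proteoglycans 4 were higher and 0 lower, namely Omd (2.82 ± 0.51, adjusted p = 0.0018), Ecm2 (2.06 ± 0.38, adjusted p = 0.002), Prelp (1.24 ± 0.25, adjusted p = 0.0034) and the collagen-binding decorin gene Dcn (0.91 ± 0.23, adjusted p = 0.011, and 0.057 in the NovaSeq samples alone).

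Several matrix proteases were lower in CC4:2, while of their inhibitors 2 were higher and Timp1 was lower. Of 21 proteases and inhibitors 10 were lower, 2 higher and 9 not called (median -0.91), and 6 were lower without CC4:2 replicate 3. Mmp13, a collagenase, was at 0.212, 0.451 and 0.522 CPM in CC4:2 and 378, 477 and 429 CPM in CC4:4. The 3 CC4:2 stumps were all below 1 CPM and the CC4:4 stumps were alike (-10.05 ± 1.06, adjusted p = 1.4e-04). Mmp3, stromelysin, fell by 3.99 ± 0.47 (adjusted p = 2.3e-04), the neutrophil collagenase gene Mmp8 by 6.86 ± 0.66 (adjusted p = 8.8e-05) and the urokinase receptor gene Plaur by 2.52 ± 0.30 (adjusted p = 2.7e-04). Mmp2, a gelatinase of fibroblasts, was at 572, 1426 and 997 CPM in CC4:2 and 1219, 1304 and 2180 in CC4:4, which overlapped (-0.65 ± 0.52, adjusted p = 0.34). Of the inhibitors, Timp3 rose by 1.40 ± 0.19 (adjusted p = 4.9e-04) and Timp4 by 1.85 ± 0.44 (adjusted p = 0.0076, and 0.09 in the NovaSeq samples alone). Timp1, which inflammation induces, fell by 2.24 ± 0.48 (adjusted p = 0.0045, and 0.0526 in the NovaSeq samples alone), and Timp2 was not called (0.17 ± 0.33, adjusted p = 0.71).

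Growth factor pathways split by member. Of 23 TGF-beta and activin genes 9 were higher, 5 lower and 9 not called (median 0.21), with 3 and 3 without CC4:4 replicate 2, 7 and 3 without CC4:2 replicate 3, and 5 and 5 without CC4:4 replicate 3. The ligand gene Tgfb1 was at 34.4, 42.1 and 38.7 CPM in CC4:2 and 69, 64.3 and 81.1 in CC4:4, without overlap (-0.90 ± 0.14, adjusted p = 0.00096), and its receptor gene Tgfbr1 fell by 1.47 ± 0.27 (adjusted p = 0.002). The co-receptor gene Tgfbr3 rose by 1.95 ± 0.33 (adjusted p = 0.0015) and Bmp4 by 1.14 ± 0.19 (adjusted p = 0.0011). Of 26 Wnt genes 10 were higher and 4 lower (median 0.88), and 2 were lower when CC4:2 replicate 1, CC4:2 replicate 3, CC4:4 replicate 2 or CC4:4 replicate 3 was left out. The ligand gene Wnt6 was at 46.7, 32.6 and 28.1 CPM in CC4:2 and 4.4, 4.07 and 5.13 in CC4:4 (2.98 ± 0.32, adjusted p = 1.5e-04), and the secreted antagonist gene Sfrp5 at 341, 311 and 214 CPM against 39.4, 25 and 30.4 CPM (3.19 ± 0.50, adjusted p = 8.8e-04). Both lay apart between the groups, and the ligand gene Wnt4 fell by 3.13 ± 0.72 (adjusted p = 0.0067). In the insulin-like growth factor family, the binding protein genes Igfbp6 (2.50 ± 0.27, adjusted p = 1.6e-04) and Igfbp5 (2.23 ± 0.32, adjusted p = 6.4e-04) rose and Igfbp2 fell by 3.51 ± 0.90 (adjusted p = 0.011), while Igf1 was not called (0.85 ± 0.36, adjusted p = 0.083). In all 4 of 10 were higher and 1 lower, with 2 higher without CC4:4 replicate 2 and 2 lower without CC4:2 replicate 2.

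Chemokines, which draw leukocytes into tissue, showed some of the largest falls. Of 29 chemokines and receptors 23 were lower, 1 higher and 5 not called (median -2.96). The neutrophil attractant Cxcl6 (ENSRNOG00000002843) was at 0.371, 0.169 and 0.261 CPM in CC4:2 and 185, 323 and 151 CPM in CC4:4 (-9.64 ± 0.76, adjusted p = 3.8e-05). Each CC4:2 stump held under 1 CPM. Cxcl1 was at 0.476, 0.113 and 0.209 CPM against 13.2, 14.2 and 12 CPM (-5.58 ± 0.54, adjusted p = 8.8e-05) and Cxcl2 at 0.265, 0.0564 and 0.0522 CPM against 61.2, 63.6 and 28 CPM (-8.58 ± 0.69, adjusted p = 4.1e-05), and neither overlapped. Their receptor Cxcr2 fell by 3.87 ± 0.46 (adjusted p = 2.5e-04). The monocyte attractants Ccl2 (-3.19 ± 0.32, adjusted p = 1.1e-04) and Ccl7 (-2.96 ± 0.29, adjusted p = 1.0e-04) fell as well. Cxcl14, a chemokine of resting tissue, was the 1 higher gene (1.47 ± 0.38, adjusted p = 0.011), a call that did not hold without CC4:4 replicate 2 (adjusted p = 0.0528). Ccl24, an eosinophil attractant (0.82 ± 0.50, adjusted p = 0.22), and Cx3cl1, the ligand of Cx3cr1 (0.34 ± 0.36, adjusted p = 0.48), were not called.

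The promoters of the neutrophil attractants are shown because these genes fell together, and they were chosen after their values were seen. The windows are again those of RefSeq (GRCr8, minus strand), at chr14:17479272-17479571 for Cxcl1, chr14:17467206-17467505 for Cxcl2 and chr14:17596368-17596667 for Cxcl6. Capitals mark every match on either strand to GGANTTTCC or GGGNTTTCC, forms of the kappa-B site that NF-kappa-B binds. These letters were settled on after the windows had been read with a looser form.
Cxcl1: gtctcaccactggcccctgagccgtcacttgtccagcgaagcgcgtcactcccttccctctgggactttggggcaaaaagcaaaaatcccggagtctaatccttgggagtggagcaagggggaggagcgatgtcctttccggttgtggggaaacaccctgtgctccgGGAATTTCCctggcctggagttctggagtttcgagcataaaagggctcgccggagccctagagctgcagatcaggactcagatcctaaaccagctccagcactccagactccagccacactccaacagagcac
Cxcl2: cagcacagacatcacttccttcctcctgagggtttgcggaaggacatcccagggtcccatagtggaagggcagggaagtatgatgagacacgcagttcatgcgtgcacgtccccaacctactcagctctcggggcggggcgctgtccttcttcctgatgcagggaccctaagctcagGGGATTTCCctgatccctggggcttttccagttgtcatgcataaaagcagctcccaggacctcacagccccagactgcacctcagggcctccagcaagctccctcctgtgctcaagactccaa
Cxcl6: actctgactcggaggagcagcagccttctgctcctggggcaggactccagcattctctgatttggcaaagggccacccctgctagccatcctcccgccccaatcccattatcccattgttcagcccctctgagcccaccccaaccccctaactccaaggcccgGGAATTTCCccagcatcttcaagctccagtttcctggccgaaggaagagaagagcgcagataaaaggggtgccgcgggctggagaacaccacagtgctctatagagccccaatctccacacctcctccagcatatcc
Each window held 1 match, which lay 83 bases before the start in Cxcl1, 73 in Cxcl2 and 87 in Cxcl6. Of 22 genes of the chemokine list with a window, 7 held either form, as did 2.82% of all promoters. Since the letters were settled on after windows of this list had been read, these shares cannot test whether the motif is commoner there. A match is again no sign that a factor was bound.

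Most interleukin 1 genes fell. Of 15 interleukin 1 and inflammasome genes 12 were lower, 0 higher and 3 not called (median -1.61). The cytokine Il1b was at 3.34, 3.21 and 5.06 CPM in CC4:2 and 192, 303 and 127 CPM in CC4:4, with the groups far apart (-5.74 ± 0.45, adjusted p = 3.8e-05). Its natural antagonist Il1rn fell by 4.03 ± 0.44 (adjusted p = 1.7e-04) and the decoy receptor Il1r2 by 4.20 ± 0.49 (adjusted p = 2.4e-04), and the sensor Nlrp3 fell by 1.61 ± 0.25 (adjusted p = 0.00096). Il33, an alarm cytokine of stromal cells, was at 241, 181 and 256 CPM against 225, 267 and 202 CPM, with overlap (-0.03 ± 0.20, adjusted p = 0.91). In the gp130 family, which signals through Il6st, 5 of 14 genes were lower and 4 higher (median 0.13). Il6 was at 0.476, 0.169 and 0.157 CPM in CC4:2 and 3.4, 5.08 and 7.93 in CC4:4, without overlap (-4.31 ± 0.59, adjusted p = 4.8e-04), and Osm, oncostatin M, fell by 4.04 ± 0.45 (adjusted p = 1.7e-04). Socs3, a feedback inhibitor of this pathway, fell by 2.53 ± 0.36 (adjusted p = 5.4e-04). The receptor genes Lifr (1.66 ± 0.18, adjusted p = 1.6e-04) and Cntfr (2.48 ± 0.38, adjusted p = 8.6e-04) rose.

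Of 13 TNF and interferon signal genes 10 were lower and 3 not called (median -2.51). Tnf was at 0.635, 0.451 and 0.418 CPM in CC4:2 and 5.05, 4.54 and 4.45 in CC4:4, without overlap (-3.20 ± 0.28, adjusted p = 6.3e-05). Csf3, the granulocyte growth factor, had 0 counts in CC4:2 and 0.528, 2.24 and 1.5 CPM in CC4:4, which was at least 25.6-fold lower when the CC4:2 group was set to a floor of 3 counts in all. Il17a, a T cell cytokine, also had 0 counts in CC4:2 and was at least 16.8-fold lower. Such floors cover counting error only. Toll-like receptors and their adaptors sense microbes and tissue debris, and 13 of 18 were lower and 5 not called (median -1.28). Tlr2 was at 18.3, 15.2 and 21.2 CPM in CC4:2 and 104, 160 and 135 in CC4:4, with no overlap (-2.86 ± 0.19, adjusted p = 1.5e-05). Tlr4, the endotoxin receptor, was at 21, 16.9 and 29 CPM against 23.2, 26 and 25.4 CPM, which overlapped (-0.16 ± 0.22, adjusted p = 0.6), although its partner Cd14 fell by 2.13 ± 0.25 (adjusted p = 2.6e-04).

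Macrophage genes differed by member. Of 20 markers 12 were lower, 0 higher and 8 not called (median -1.39). Nos2, which makes nitric oxide in activated macrophages, was at 1.54, 3.55 and 1.36 CPM in CC4:2 and 225, 355 and 81.7 CPM in CC4:4 (-6.68 ± 0.83, adjusted p = 3.2e-04). Arg1, an arginase that competes for the same substrate, was at 2.54, 3.44 and 3.6 CPM against 143, 170 and 97.3 CPM (-5.42 ± 0.66, adjusted p = 2.9e-04). Neither overlapped. Gpnmb, a glycoprotein of lipid-laden macrophages, fell by 2.51 ± 0.24 (adjusted p = 8.6e-05), and the general marker Adgre1 by 1.57 ± 0.36 (adjusted p = 0.0067, and 0.07 in the NovaSeq samples alone).

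Several genes of resident and scavenging macrophages were not called, but this did not hold for all such genes. The scavenger receptor gene Msr1, of the lipid uptake list, had 256, 191 and 294 counts in CC4:2 and 980, 824 and 515 in CC4:4. Olr1, of the same list, had 114, 28 and 59 counts against 820, 1164 and 317. Csf1r, the receptor that keeps macrophages alive, was at 238, 359 and 340 CPM in CC4:2 and 388, 277 and 465 CPM in CC4:4, with overlap (-0.27 ± 0.23, adjusted p = 0.37). The mannose receptor Mrc1 was at 134, 188 and 246 CPM against 204, 133 and 323 CPM (-0.22 ± 0.34, adjusted p = 0.64), and Cd163, the scavenger of haemoglobin, at 72.5, 114 and 132 CPM against 65.5, 30.5 and 89.2 CPM (0.78 ± 0.47, adjusted p = 0.21). Both overlapped. Mertk, which clears dying cells, stood at -0.11 ± 0.13 (adjusted p = 0.52) and the complement gene C1qc at -0.27 ± 0.23 (adjusted p = 0.38). Whether the difference between these members and those that fell is larger than their errors was not tested.

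Of 19 lysosome genes 14 were lower and 5 not called (median -0.94). Ctsz, a cathepsin, was at 65.8, 71.3 and 76.6 CPM in CC4:2 and 420, 402 and 384 in CC4:4, with no overlap (-2.50 ± 0.16, adjusted p = 1.4e-05), and Ctsb fell by 1.57 ± 0.22 (adjusted p = 4.9e-04). The lysosomal membrane genes Lamp1 (-0.19 ± 0.17, adjusted p = 0.38) and Lamp2 (-0.17 ± 0.17, adjusted p = 0.47) were not called. Of 15 genes of lipid uptake and efflux 10 were lower, 1 higher and 4 not called, and with library totals 8 were lower and 2 higher (median -0.79). The higher gene, the lipase gene Lpl (1.34 ± 0.47, adjusted p = 0.042), is also strong in fat cells and was not called without CC4:2 replicate 2 (adjusted p = 0.11), CC4:2 replicate 3 (0.12), CC4:4 replicate 2 (0.14) or CC4:4 replicate 3 (0.1). Apoe, the lipid carrier, was at 2245, 2048 and 2241 CPM against 9880, 7680 and 11703 CPM, with the groups far apart (-2.16 ± 0.23, adjusted p = 1.3e-04). Of 15 haem, iron and NRF2 genes 7 were lower, 1 higher and 7 not called (median -0.96). Hmox1, which breaks down haem, was at 16, 24.9 and 22.5 CPM against 214, 218 and 225 CPM (-3.37 ± 0.22, adjusted p = 1.5e-05), while the NRF2 target Nqo1 was not called (-0.39 ± 0.17, adjusted p = 0.086). The higher gene was Cp, ceruloplasmin (0.74 ± 0.20, adjusted p = 0.015), which was not called without CC4:2 replicate 3 (adjusted p = 0.0513), CC4:4 replicate 2 (0.065) or CC4:4 replicate 3 (0.0526).

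**Figure D4:**
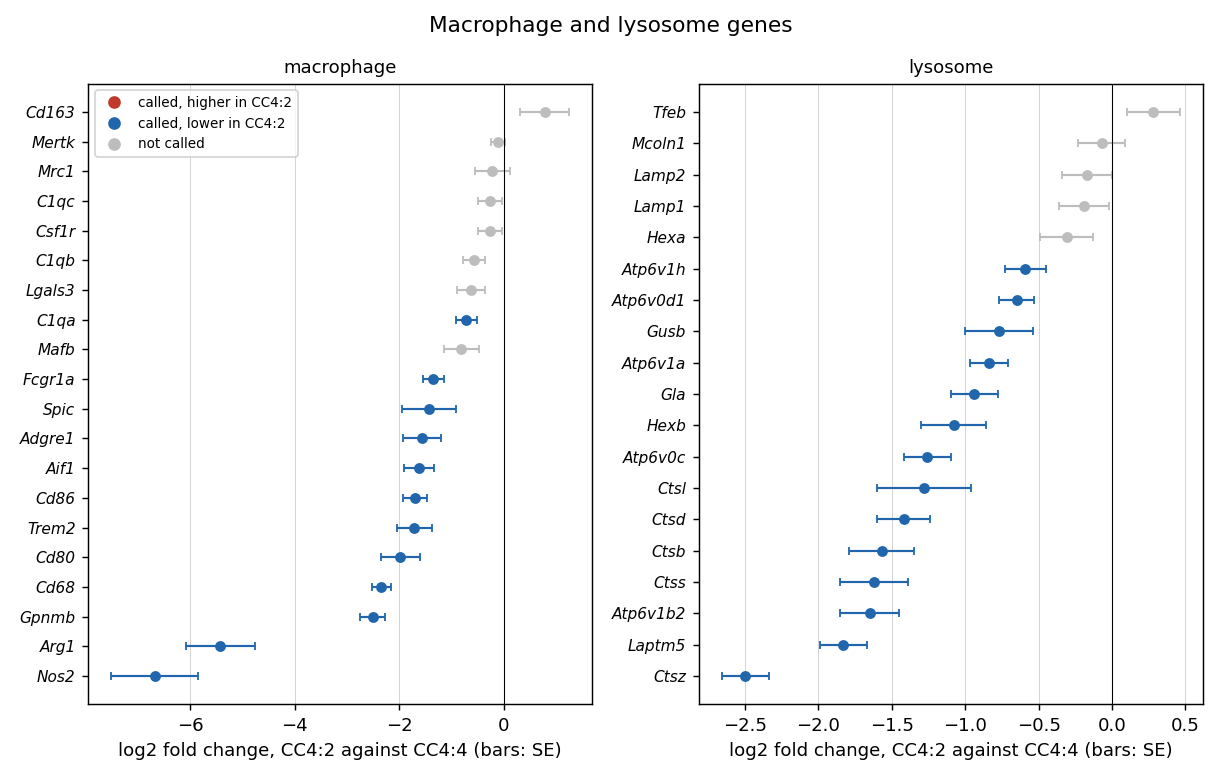
Log2 fold change with SE for 20 macrophage markers (left) and 19 lysosome genes (right), CC4:2 against CC4:4, coloured by call. Nos2 and Arg1 lie at -6.68 and -5.42, and Csf1r, Mrc1, Mertk and Cd163 lie between -0.27 and 0.78 without a call.

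Complement and antigen-presentation genes differed by member. Of 19 complement genes 6 were lower and 2 higher (median 0.12), with 4 higher without CC4:2 replicate 1 and 1 without any of the others but CC4:4 replicate 1. The central component C3 was at 46.9, 49.6 and 43.9 CPM in CC4:2 and 292, 537 and 302 in CC4:4, without overlap (-3.01 ± 0.56, adjusted p = 0.0021). The leukocyte receptor chain Itgam fell by 1.69 ± 0.20 (adjusted p = 2.5e-04), while the early proteases C1r (0.12 ± 0.16, adjusted p = 0.58) and C1s (-0.30 ± 0.18, adjusted p = 0.2) were not called. Cd59, which blocks the membrane attack complex, rose by 1.15 ± 0.21 (adjusted p = 0.0022), and C7, a component of that complex (1.04 ± 0.38, adjusted p = 0.0495), was higher but was not called without CC4:2 replicate 2 (adjusted p = 0.068), CC4:2 replicate 3 (0.18), CC4:4 replicate 2 (0.17) or CC4:4 replicate 3 (0.11). Of 16 MHC and antigen-processing genes 12 were lower and 4 not called (median -1.02). The lower count was 8 without CC4:2 replicate 1, 9 without CC4:2 replicate 2 or CC4:4 replicate 1, and 14 without CC4:2 replicate 3. B2m, the light chain of class I, was at 1386, 1078 and 1938 CPM against 4198, 3988 and 3603 CPM (-1.42 ± 0.27, adjusted p = 0.0025), and the immunoproteasome gene Psmb8 fell by 1.81 ± 0.18 (adjusted p = 1.1e-04). The class I and II genes named RT1 have near-identical copies, and how their reads were divided is not known, so those values are uncertain.

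Neutrophil genes gave 10 lower and 2 higher of 12 tested (median -4.45, and the same with genes at 0 counts set to their bound). S100a9, a subunit of calprotectin, was at 4.02, 2.71 and 1.93 CPM in CC4:2 and 134, 378 and 154 CPM in CC4:4, with the groups far apart (-6.26 ± 0.56, adjusted p = 6.6e-05). Prok2, a chemokine-like peptide, had 0 counts in CC4:2 and 2.82, 13.7 and 3.08 CPM in CC4:4, at least 118-fold lower. The granule enzyme genes Mpo and Prtn3 were higher. Mpo was at 2.06, 14.7 and 11.1 CPM against 4.34, 0.813 and 1.85 CPM, with overlap (1.98 ± 0.70, adjusted p = 0.045), and was not called without CC4:2 replicate 2 (adjusted p = 0.15), CC4:2 replicate 3 (0.098), CC4:4 replicate 2 (0.14) or CC4:4 replicate 3 (0.12). Prtn3 was at 1.43, 1.24 and 0.94 CPM against 0.117, 0.339 and 0.274 CPM (2.29 ± 0.73, adjusted p = 0.029) and was not called without CC4:2 replicate 1 (adjusted p = 0.069), CC4:2 replicate 2 (0.059), CC4:4 replicate 1 (0.096), CC4:4 replicate 2 (0.057) or CC4:4 replicate 3 (0.068). Mast cell genes gave 5 higher and 0 lower of 10 (median 1.29). Ms4a2, a chain of the IgE receptor, was at 6.14, 2.76 and 6.47 CPM against 0.645, 0.271 and 0.752 CPM (3.18 ± 0.75, adjusted p = 0.0076), while the stem cell factor receptor Kit was not called (-0.05 ± 0.25, adjusted p = 0.89). The mast cell count was 2 without CC4:2 replicate 3, CC4:4 replicate 2 or CC4:4 replicate 3, 3 without CC4:2 replicate 1, and 2 in the NovaSeq samples alone.

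Lymphocyte genes were lower throughout the lists. All 20 T cell genes were lower (median -3.29) and each kept its call with only the NovaSeq samples. The receptor chain Cd3e was at 1.69, 1.86 and 3.97 CPM in CC4:2 and 51.2, 47.9 and 32 in CC4:4, with no overlap (-4.12 ± 0.40, adjusted p = 9.4e-05). The costimulatory gene Icos fell by 4.30 ± 0.45 (adjusted p = 1.3e-04), the checkpoint receptor gene Tigit by 4.88 ± 0.95 (adjusted p = 0.0028) and Foxp3, the factor of regulatory T cells, by 2.42 ± 0.47 (adjusted p = 0.0029). Of 12 cytotoxic genes 10 were lower and 2 not called (median -2.47), with Gzmb, granzyme B, at -2.78 ± 0.73 (adjusted p = 0.013) and Gzma at -0.60 ± 0.66 (adjusted p = 0.49). All 15 B and plasma cell genes were lower (median -5.13). Ms4a1, which encodes CD20, was at 0.318, 0.846 and 1.83 CPM in CC4:2 and 36.6, 109 and 26 in CC4:4, where replicate 2 was the highest (-5.83 ± 0.93, adjusted p = 0.00099). Mzb1, an endoplasmic reticulum protein of antibody-secreting cells, was at 0.476, 1.18 and 5.06 CPM against 362, 574 and 267 CPM (-7.47 ± 1.04, adjusted p = 5.2e-04). Neither gene overlapped between the conduits.

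Cell cycle genes were lower in CC4:2, with 22 of 25 lower, 0 higher and 3 not called (median -1.78). Ccna2, the cyclin of S phase and early mitosis, was at 4.61, 3.1 and 3.39 CPM in CC4:2 and 16.5, 24.6 and 16.6 in CC4:4, with no overlap (-2.37 ± 0.26, adjusted p = 1.6e-04). The mitotic genes Cdk1 (-2.44 ± 0.40, adjusted p = 0.0012) and Plk1 (-2.28 ± 0.30, adjusted p = 4.0e-04) and the topoisomerase gene Top2a (-2.03 ± 0.27, adjusted p = 4.2e-04) fell. Among replication genes the falls were smaller, with Mcm4 at -0.83 ± 0.14 (adjusted p = 0.0016) and Pcna at -0.74 ± 0.16 (adjusted p = 0.0055), while Mcm7 (-0.28 ± 0.15, adjusted p = 0.16) and Tyms (0.41 ± 0.18, adjusted p = 0.1) were not called.

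The promoters of Plk1 and Cdk1 are shown because both are mitotic genes that fell, and they too were chosen after their values were seen. Their windows in RefSeq (GRCr8) are chr1:186147408-186147707 and chr20:19265043-19265342, both on the plus strand. Capitals mark TTTGAA, the CHR element that represses such genes outside the dividing state.
Plk1: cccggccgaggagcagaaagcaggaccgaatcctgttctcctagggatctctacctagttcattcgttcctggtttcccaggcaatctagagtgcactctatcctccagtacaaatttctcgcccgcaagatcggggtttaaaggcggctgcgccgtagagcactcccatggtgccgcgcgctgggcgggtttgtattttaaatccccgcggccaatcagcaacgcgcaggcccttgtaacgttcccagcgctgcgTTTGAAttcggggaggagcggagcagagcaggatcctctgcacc
Cdk1: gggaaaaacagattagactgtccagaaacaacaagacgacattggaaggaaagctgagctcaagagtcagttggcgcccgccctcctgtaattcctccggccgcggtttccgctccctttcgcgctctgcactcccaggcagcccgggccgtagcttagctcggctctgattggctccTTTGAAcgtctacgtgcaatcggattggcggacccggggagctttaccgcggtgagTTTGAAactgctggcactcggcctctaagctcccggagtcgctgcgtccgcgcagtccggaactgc
Plk1 held 1 match just after its start and Cdk1 held 2 before it. The motif, on either strand, was in 9 of the 20 cell cycle genes with a window and in 18.3% of all promoters. Here too a match is no sign that a factor was bound.

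The share of genes called in the oxidative phosphorylation, heat shock and immediate early lists was near the 39.2% of all genes tested. Of 20 oxidative phosphorylation genes 6 were lower and 1 higher (median -0.36), with 3 lower without CC4:2 replicate 2 and 2 lower without CC4:4 replicate 2. Cox5a fell by 0.83 ± 0.15 (adjusted p = 0.0021), and the higher gene was Sdha, a subunit of complex II (0.57 ± 0.12, adjusted p = 0.0045, and 0.06 in the NovaSeq samples alone). Of 19 glycolysis and hypoxia genes 5 were lower and 4 higher (median -0.47), with 10 lower without CC4:2 replicate 2, the stump rich in muscle transcripts, and 3 lower without CC4:2 replicate 1. Pgam1, a glycolytic enzyme, fell by 0.76 ± 0.13 (adjusted p = 0.0012), while Ndrg1, which myelinating Schwann cells also need, was at 1696, 1264 and 987 CPM in CC4:2 and 334, 264 and 288 in CC4:4 (2.16 ± 0.28, adjusted p = 4.1e-04), with no overlap. Of 16 heat shock genes 5 were lower and 1 higher (median -0.20, and 0.02 with library totals), with 2 lower without CC4:4 replicate 2. The higher gene was Cryab, a small heat shock gene also strong in muscle and Schwann cells (2.45 ± 0.72, adjusted p = 0.02), which was not called without CC4:2 replicate 1 (adjusted p = 0.074), CC4:4 replicate 1 (0.057), CC4:4 replicate 2 (0.0535) or CC4:4 replicate 3 (0.071). Hspa1a had 0 counts in CC4:2 and 4.34, 8.4 and 3.35 CPM in CC4:4, at least 98.9-fold lower, while its near-identical copy Hspa1b was not called (-0.06 ± 0.56, adjusted p = 0.95). Reads of these 2 genes can be split by the authors' counting, so both values are uncertain. Of 16 immediate early genes 5 were higher and 1 lower (median 0.28), with 1 and 1 without CC4:4 replicate 2 and 3 and 1 without CC4:2 replicate 1 or 2. Egr3, an activity-induced factor, rose by 1.27 ± 0.31 (adjusted p = 0.0086, and 0.081 in the NovaSeq samples alone), while Fos was not called (0.22 ± 0.52, adjusted p = 0.76). Of 15 interferon-stimulated genes 3 were lower and 12 not called (median -0.56), and 1 was lower without CC4:4 replicate 2. The share of 20% lower was near the 20.7% of all genes tested.

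Outside these lists, the largest rises and falls among called genes with a usual symbol, a mean of at least 1 CPM and no overlap were as follows. Prkg2, a cyclic GMP-dependent kinase gene, was at 2.86, 2.09 and 4.96 CPM in CC4:2 and 0.117, 0 and 0.0684 in CC4:4, where the group held 3 counts in all. Its ratio was 51.6, with a 95% counting interval of 17.4 to 252. Klk10, a kallikrein gene, was at 1.59, 1.69 and 4.44 CPM against 0, 0 and 0.137 CPM, with 2 counts in CC4:4 and a ratio of 60.3 (16.4 to 503). Hcn4, a pacemaker channel gene, was at 105, 174 and 127 CPM in CC4:2 and 8.33, 1.83 and 3.69 CPM in CC4:4, with the groups far apart (4.86 ± 0.86, adjusted p = 0.0017). Phf24, a gene of neural tissue, rose by 4.93 ± 0.79 (adjusted p = 0.001), and Slc6a15, an amino acid transporter gene, by 5.15 ± 0.81 (adjusted p = 9.3e-04). Calb1, a calcium-binding protein gene, was at 72.4, 37 and 46.7 CPM against 4.81, 0.203 and 0.547 CPM (4.77 ± 1.11, adjusted p = 0.007, and 0.063 in the NovaSeq samples alone). Among the falls, Klk1b3 was at least 63.3-fold lower, Agr2 at least 49.7-fold, Stfa2l2 at least 40.9-fold and Or2y1i at least 39.7-fold, each with 0 counts in CC4:2. Klk1b3, Stfa2l2 and Or2y1i belong to families of similar genes, so reads may be shared and their values are uncertain.

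Of 12 giant cell and osteoclast-like genes 5 were lower and 1 higher (median -1.32), with Tnfsf11, the ligand that drives osteoclasts, at 0.371, 0.338 and 0.313 CPM in CC4:2 and 5.28, 4.74 and 5.4 in CC4:4 (-3.89 ± 0.51, adjusted p = 4.2e-04). Of 10 dendritic cell genes 4 were lower and 1 higher (median -0.90), with the factor Irf8 at -1.95 ± 0.28 (adjusted p = 6.3e-04). The higher gene, Zbtb46, a factor of dendritic cells (0.96 ± 0.27, adjusted p = 0.017), was not called without CC4:2 replicate 2 (adjusted p = 0.063) or CC4:4 replicate 2 (0.07). Of 7 lymphatic genes Pdpn, podoplanin, fell by 1.77 ± 0.27 (adjusted p = 8.4e-04), and Reln (2.81 ± 0.58, adjusted p = 0.0038) and Lyve1 (1.05 ± 0.30, adjusted p = 0.017) rose, and the call of Lyve1 was lost without CC4:4 replicate 3 (adjusted p = 0.061). The lymphatic list had 2 lower without CC4:2 replicate 2 or CC4:4 replicate 3. Its shares were 28.6% higher and 14.3% lower, beside 18.5% and 20.7% of all genes tested. Of 12 pericyte and PDGF genes Cspg4 (1.90 ± 0.27, adjusted p = 6.3e-04) and Pdgfd (0.94 ± 0.24, adjusted p = 0.012) rose and 10 were not called. Of 18 matricellular genes 3 were higher and 2 lower (median 0.33), with 1 and 1 without CC4:4 replicate 2 and 2 and 1 without CC4:2 replicate 3. Of 10 cartilage and bone genes 2 were higher (20%) and 1 lower (10%), beside the same 18.5% and 20.7%. The median was -0.39. The counts were 1 and 2 without CC4:2 replicate 1, and 1 and 1 without CC4:4 replicate 3, where the median was 0.08. The cartilage collagen Col2a1 stood at 3.80 ± 0.69 (adjusted p = 0.002). Of 6 epithelial genes the cadherin gene Cdh1, also found in Schwann cells, rose by 2.49 ± 0.35 (adjusted p = 5.6e-04).

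**Figure D5:**
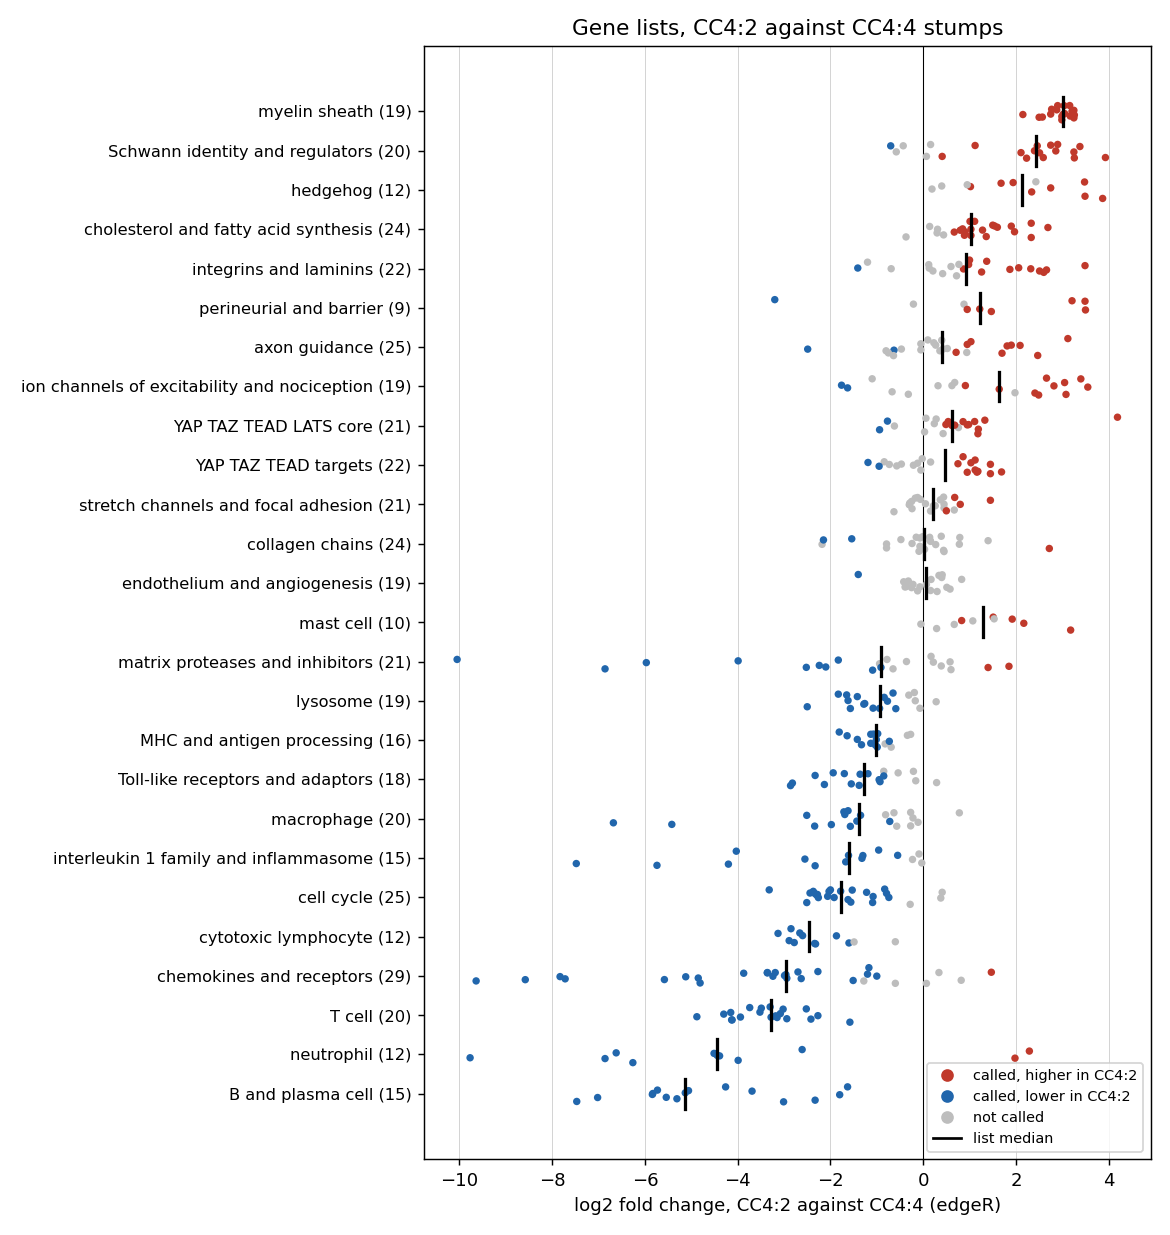
Log2 fold change of every tested member of 26 gene lists, CC4:2 against CC4:4, coloured by call, with the number tested in parentheses and a bar at the median of the list. Medians run from -5.13 (B and plasma cell) to 3.02 (myelin sheath), and those of collagen chains and endothelium lie at 0.01 and 0.07.

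Each conduit was also set beside the control group, and CC4:2 beside the verteporfin group. CC4:2 against Control called 3186 genes higher (20.3%) and 3649 lower (23.2%). CC4:4 against Control called 0 (0.00%) in either direction in the same edgeR fit. Of its 15712 genes 830 had an unadjusted p under 0.05, near the share that this threshold gives when no gene differs. The Control stumps were uneven, with myelin sums of 585, 5550 and 3278 CPM. So the lack of calls does not show that CC4:4 and Control were alike. VP4:2 against CC4:2 called 822 higher (5.23%) and 157 lower (0.999%). These comparisons share samples with CC4:2 against CC4:4. Set against Control, the hedgehog list had a median of 2.48 in CC4:2 and of 0.21 in CC4:4. In VP4:2, set against CC4:2, it was -0.77, and 2 of 12 genes were lower. The chemokine list stood at -3.24, -0.13 and 1.46, in the same order, and 13 of 29 genes were higher in VP4:2 than in CC4:2. For the macrophage list the values were -1.58, -0.32 and 1.23, with 12 of 20 genes higher in VP4:2, and for the myelin list 3.15, 0.16 and -0.60, with 0 of 19 called. Mmp13 was at 1306, 91 and 283 CPM in Control and 45.9, 73.5 and 56 CPM in VP4:2, which lay between the conduits and was higher than in CC4:2 (7.18 ± 0.96, adjusted p = 0.0015). Cxcl6 was at 254, 58.6 and 105 CPM in Control and 7.13, 10 and 4.65 CPM in VP4:2 (4.72 ± 0.69, adjusted p = 0.0024). Nos2 was at 5.43, 8.86 and 3.03 CPM in VP4:2, against 1.54, 3.55 and 1.36 CPM in CC4:2, and was not called between them (1.43 ± 0.70, adjusted p = 0.26).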

How the data were processed

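RNA of 12 rat sciatic nerve stumps (4 groups of 3) was sequenced as paired reads of 150 bases, per the labels' protocols. The deposited files held 12 identical copies of 1 table of expected counts for 30562 genes with rat Ensembl identifiers. The submitters' processing notes name HISAT2, StringTie, RSEM and DESeq2. Their roles and versions, the genome build and the handling of shared or antisense reads are not given in the sources used here.

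Counts were rounded to whole numbers. Genes were kept with edgeR's filterByExpr (at least 10 counts at the median depth, which is 0.589 CPM, in at least 3 samples), which 14850 genes did not pass. Counts were scaled by TMM and fitted over all 12 samples with the quasi-likelihood test of edgeR (version 4.0.16, R 4.3.3), which leaves 8 residual degrees of freedom, and p-values were adjusted over all genes tested by Benjamini-Hochberg. A gene was called at an adjusted p under 0.05, and each SE was taken as |log2 fold change| over the root of F. The code was tested on simulated data. Alternatives used limma 3.58.1 and DESeq2 1.42.0. A group with 0 counts was set to a floor of 3 counts for folds, and intervals and floors cover counting error only.

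The comparison, its 57 gene lists (970 genes, of which 900 were tested, 43 did not pass the filter and 27 were not analysed here) and the tests were chosen with earlier results of these data known. The rule for naming genes took, per list, up to 5 members of smallest p, up to 3 called against the list's median and up to 3 of highest level among those not called. It also took every member of lists of up to 12 genes, and the 10 largest rises and falls with at least 1 CPM and no overlap. Other genes named, and which of the rule's genes are printed, were chosen after their values were seen. Some genes stand in several lists. Promoters were matched by symbol in RefSeq's GRCr8 table. Some items are not reported here.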

Additional observations from a re-analysis of the deposited data

How the results depend on the processing

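In the NovaSeq samples alone 3253 genes were called, 1427 higher and 1826 lower in CC4:2. Against a difference of 1.5-fold (glmTreat) 2936 were called, 1327 higher and 1609 lower. Leaving out 1 library gave 4218 to 5392 calls, with 1879 to 2595 higher and 2339 to 2891 lower, in each case fewest without CC4:4 replicate 2. The other settings gave 5481 to 6859 calls, and library totals turned the medians of the smooth muscle, prostaglandin, heat shock and epithelium lists from below to above 0. Of the 6156 genes 3857 were called with each library left out and 2200 under all 18 settings. Of the named genes only Ccl17 reversed, from 0.00 to -2.11 without CC4:2 replicate 1 (and 0.51 without CC4:2 replicate 2). Deviations of same-numbered stumps from their group means correlated at -0.08, 0.02 and 0.12, and not every stump correlated best with its own number. With 3 stumps per group such values cannot decide whether same-numbered stumps were paired, and the labels do not say. With the replicate number as a block 5705 genes were called, 2576 higher and 3129 lower. For some lists not so described above, the NovaSeq samples alone called only part of the genes that had a call. They called 5 of 14 TGF-beta genes, 6 of 12 proteases, 4 of 9 neurotrophic genes and 9 of 14 lysosome genes. The same samples called 4 of 8 haem genes, 1 of 7 oxidative phosphorylation genes, 4 of 9 glycolysis genes and 2 of 6 heat shock genes. Then came 1 of 5 matricellular genes, 1 of 3 collagen genes, 1 of 5 neuronal genes and 2 of 4 focal adhesion genes. Repair Schwann cell, giant cell and immediate early genes kept 3 of 6 each. Dendritic cell and insulin-like growth factor genes kept 3 of 5 each. The rest were 4 of 7 prostaglandin genes, 5 of 8 nerve fibroblast genes, 9 of 14 Wnt genes and 7 of 11 lipid handling genes. Further lists kept 10 integrin and laminin genes, 9 Hippo genes, 9 YAP and TAZ targets, 9 macrophage genes, 10 MHC genes and 8 axon guidance genes. The DNBSEQ-T7 pair, added after the data were seen, has no test and gave list medians of 2.43 for myelin, 1.79 for hedgehog and -2.17 for chemokines, but of the opposite sign to the full fit for skeletal muscle (-0.68), type I interferon (0.47), collagen (-0.41), neuronal (-0.33), lymphatic (0.27), epithelium (0.62), immediate early (-0.06), endothelium (-0.04) and complement (-0.01) lists. With 3 stumps per group and these depths, a gene not called may still differ.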
